A study of Drosophila melanogaster with 6 samples.

Results

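The aminoacyl-tRNA synthetases are the enzymes that attach each amino acid to its tRNA. Their mRNAs were examined in the larval brain of Drosophila melanogaster at the 3rd instar, under knockdown of DMAP1 by RNAi that the neuronal driver elav-Gal4 switched on. DMAP1 belongs to the Tip60 chromatin complex, which acetylates and exchanges histones. Members were chosen by gene symbol alone, a 3-letter amino acid code followed by RS, with or without -m for the mitochondrial enzyme, plus the fused GluProRS. The rule found 33 genes among 17490 in the count table, of which 18 were cytosolic and 15 mitochondrial.

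All groups share the labelled genotype DMAP1 RNAi and the tissue label brain, and the labels hold 6 samples of it. The 6 count columns fall, by their names only, into DMAP1RNAi103734 and DMAP1RNAi63666, with 3 libraries each, and the labels do not say what these series stand for. Wild-type columns of the table match no labelled sample and were not analysed here, so no value below measures an effect of the knockdown. Nothing in the labels says that the libraries came from separate animals, and the p-values therefore cover no more than the spread among these libraries, possibly a technical one. The labels do not say which cells of the brain carried the knockdown beyond what the neuronal driver implies, and each value is an average over all cells of the tissue, in which fewer cells of a type and less RNA per cell cannot be told apart.

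As background, each synthetase recognises 1 amino acid and the matching tRNAs, and the charged tRNAs are carried to the ribosome by elongation factors. Mitochondria have their own ribosomes and tRNAs, and most of their synthetases are made from separate nuclear genes and imported. Several cytosolic synthetases of animals sit in a multisynthetase complex held by the AIMP scaffold proteins. Nervous tissue is a known site of disease from synthetase variants in humans, among them GlyRS and TyrRS in Charcot-Marie-Tooth neuropathy and AspRS-m in a leukoencephalopathy.

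The rule reached 19 of 20 amino acids in the cytosol and 15 in mitochondria. The cytosolic enzyme for phenylalanine is built from 2 subunits, alpha-PheRS and beta-PheRS, whose symbols the rule does not take, and these are described with the partner genes. No symbol ending in -m was found for glutamine, glycine, histidine, lysine or threonine. The class called cytosolic thus means a symbol without -m. Symbols do not show whether such a gene also serves mitochondria. Of the cytosolic genes 5 lay on chromosome 2L, 4 on 2R and 3 each on 3L, 3R and X. Of the mitochondrial genes 7 lay on 3L, 4 on 2R, 3 on 3R and 1 on 2L.

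Library totals ranged from 31518485 to 37236953 counts, and 12855 to 13181 genes had at least 1 count. All 33 members were well counted, from 171 counts of GluRS-m to 11266 of GluProRS in a single library, and all passed the filter on low counts, which kept 10211 genes. DMAP1 itself stood at 12.4, 13.8 and 11.7 CPM (counts scaled to a common library total) in the DMAP1RNAi103734 series against 7.08, 8.42 and 8.00 CPM in the DMAP1RNAi63666 series. Its log2 fold change, with the DMAP1RNAi63666 series over the other throughout, was -0.62 (SE 0.12, edgeR adjusted p = 0.0453), and the call was lost without any 1 library except library 2 of the DMAP1RNAi63666 series. The neuronal marker elav was present at 621 to 818 CPM, and the glial marker repo at 53.3 to 79.6 CPM. The salivary gland list (5 genes) summed to at most 0.174 CPM in any library, with 3 to 5 of its genes at 0.

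Cytosolic synthetases stood above mitochondrial ones. Levels are given in TPM, counts divided by gene length and scaled to the same sum in every library, so that genes can be compared. The median over members of the mean TPM of 6 libraries was 85.4 for the 18 cytosolic genes (range 45.7 to 175) and 25.5 for the 15 mitochondrial genes (range 7.87 to 95.5). The median gene kept by the filter had 30.4 TPM. All 18 cytosolic genes lay above that value, and 12 of the 15 mitochondrial genes lay below it.

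**Figure D1:**
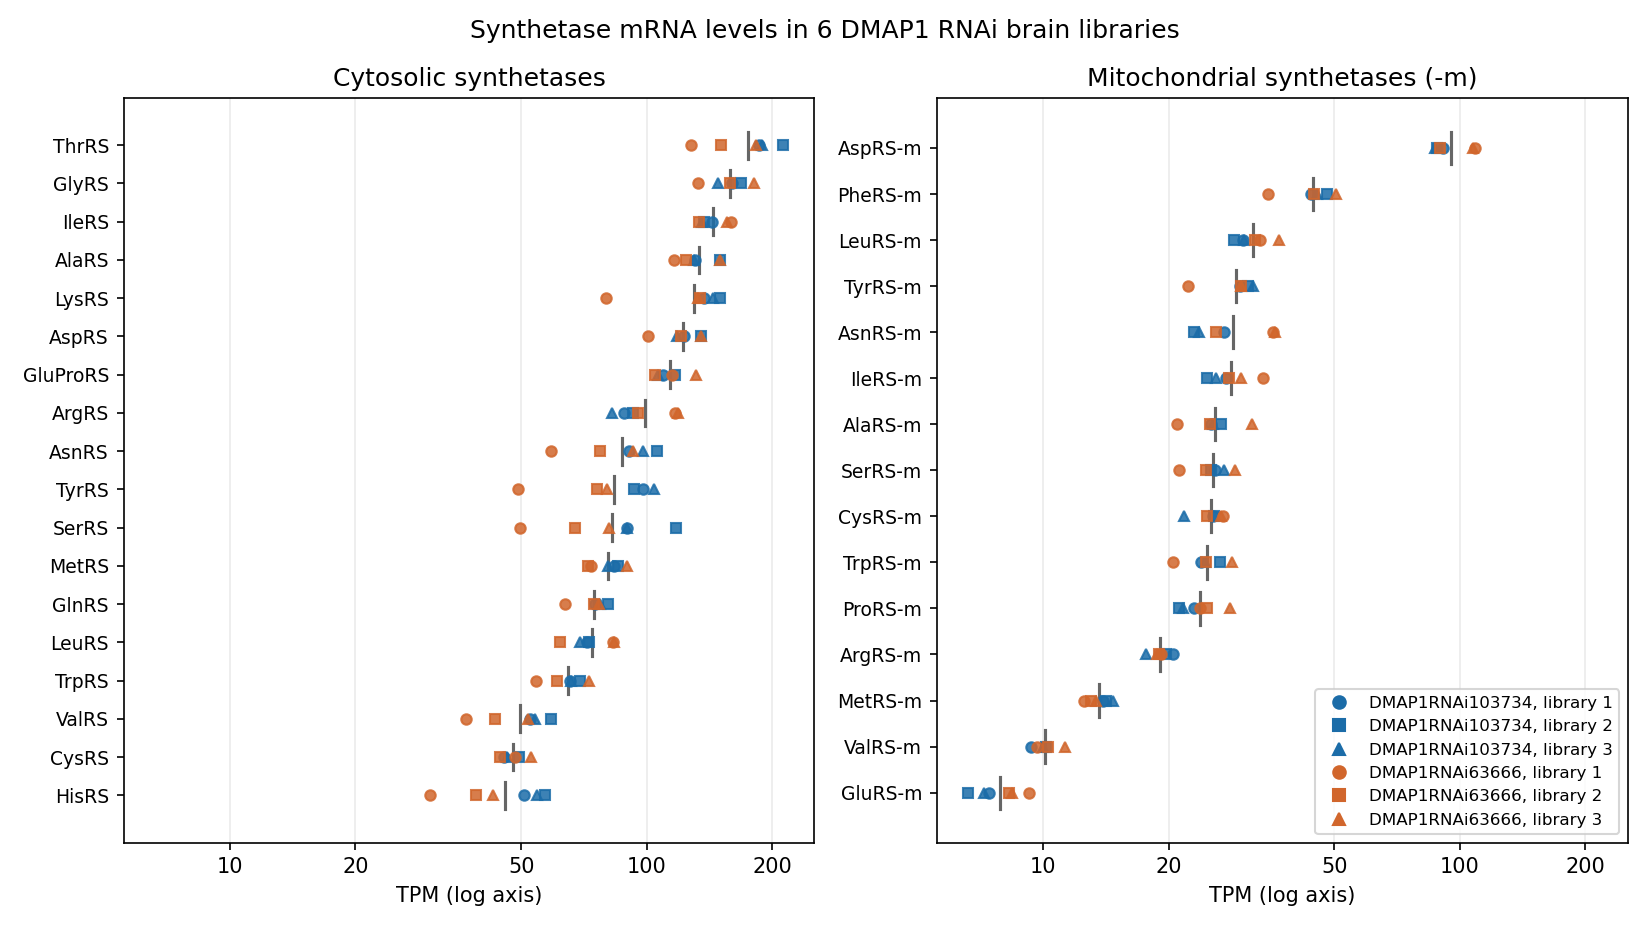
TPM on a log axis for each synthetase in each of the 6 libraries, with the mean over libraries as a grey bar, cytosolic genes left and mitochondrial genes right. Cytosolic means run from 45.7 (HisRS) to 175 (ThrRS), and of the mitochondrial genes AspRS-m alone has a mean above 50 TPM.

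ThrRS, the threonyl enzyme (FBgn0027081, chromosome 2L, 12103751 to 12107170, plus strand), had the highest mean, 175 ± 30.3 TPM (SD, n = 6). Its libraries read 186, 213 and 189.8 TPM in the DMAP1RNAi103734 series against 128, 151 and 183 in the DMAP1RNAi63666 series. All libraries of the second series were lower than those of the first. GlyRS, the glycyl enzyme (FBgn0027088, 3L, 15095142 to 15097686, plus strand), followed at 158 ± 16.5 TPM, with 160.1, 168 and 148 TPM in the first series and 133, 159 and 181 in the second. IleRS, the isoleucyl enzyme (FBgn0027086, 3L, 22288665 to 22292810, plus strand), had 143, 138 and 136 TPM in the first and 159.8, 134 and 156 in the second. For GlyRS and IleRS the series overlapped. Neighbouring means among these 3 differed by less than the larger of their SDs over libraries, so their order is not firm.

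At the low end of the cytosolic genes were ValRS, CysRS and HisRS, the enzymes for valine, cysteine and histidine. CysRS (FBgn0027091, 2R, 16143147 to 16145906, plus strand) had 45.6, 49.4 and 46.2 TPM in the DMAP1RNAi103734 series against 48.2, 44.6 and 52.8 in the other. Its coefficient of variation over 6 libraries, 6.29%, was the lowest among the cytosolic genes. ValRS (FBgn0027079, 2R, 13198850 to 13202709, plus strand) had 52.3, 59.0 and 54.1 TPM in the first series and 36.8, 43.4 and 52.0 in the second, where all libraries were lower. The means of these 3 genes ran from 45.7 to 49.6 TPM, and neighbours in that order differed by less than the SD of either gene. HisRS shares 255 exon bases with Bx on the same strand, and AspRS shares 154 with asRNA:CR43468. Reads there could not be assigned to a single gene, so the levels of HisRS and AspRS are lower limits.

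Among mitochondrial genes AspRS-m, the aspartyl enzyme (FBgn0051739, 2L, 16827078 to 16832093, plus strand), stood apart. It had 91.1, 88.3 and 87.1 TPM in the DMAP1RNAi103734 series against 109, 89.7 and 108 in the other, against 44.5 ± 5.44 TPM (SD, n = 6) for PheRS-m, the next gene. Every library of AspRS-m was above every library of the other 14 mitochondrial genes. PheRS-m, the phenylalanyl enzyme (FBgn0020766 in the table, 2R, 13968308 to 13969902, plus strand), had 43.9, 48.1 and 45.6 TPM in the first series and 34.6, 44.8 and 50.4 in the second. LeuRS-m, the leucyl enzyme (FBgn0027085, 3L, 4825853 to 4829038, plus strand), followed with 30.2, 28.7 and 30.3 TPM in the first series and 33.1, 32.2 and 36.8 in the second, all of the latter higher. The next 8 genes, from TyrRS-m to ProRS-m, lay between 29.1 and 23.7 TPM, each step smaller than the SDs involved, so the order of neighbours is not firm. Genes further apart in the order could still differ in every library, as TyrRS-m did, above TrpRS-m in all 6.

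GluRS-m, ValRS-m and MetRS-m were the lowest. GluRS-m (FBgn0036629, 3L, 16415292 to 16417177, minus strand) is the glutamyl enzyme, whose product on the glutamine tRNA is converted in mitochondria by the Gat amidotransferase. It had 7.42, 6.60 and 7.20 TPM in the DMAP1RNAi103734 series against 9.27, 8.29 and 8.44 in the other, all of the latter higher. As the member with the fewest counts, it had 185 counts or 5.30 CPM (95% exact Poisson interval 4.57 to 6.13) in library 1 of the first series and 212 counts or 6.13 CPM (5.33 to 7.02) in library 2 of the second. Such intervals cover counting error only. ValRS-m (FBgn0035942, 3L, 8961274 to 8964769, minus strand) had 9.37, 10.2 and 9.97 TPM in the first series and 9.68, 10.3 and 11.3 in the second, which overlapped. Its mean was 10.1 ± 0.646 TPM (SD, n = 6), and that of MetRS-m (FBgn0027083, 3R, 14249043 to 14259991, minus strand) was 13.6 ± 0.798 TPM. These 3 differed from their neighbours in the order by more than the SDs. ArgRS-m, at 19.1 ± 0.944 TPM, was the steadiest of all members, with a coefficient of variation of 4.94%.

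Libraries differed within the series as well as between them, and this shows best when each gene is set against its own mean. Library 1 of the DMAP1RNAi63666 series was low in cytosolic synthetases, with a median deviation of -0.24 on the log2(TPM + 1) scale, and held the lowest value of 12 of the 18 genes. It held the lowest value of 6 of the 15 mitochondrial genes, which together is 18 of 33 members, while over all genes tested that library was lowest for 41.3%. The median deviation of cytosolic genes was 0.13 in library 2 of the DMAP1RNAi103734 series and 0.13 in library 3 of the DMAP1RNAi63666 series. For mitochondrial genes it stayed between -0.07 and 0.01 except in library 3 of the DMAP1RNAi63666 series, where it was 0.18.

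**Figure D2:**
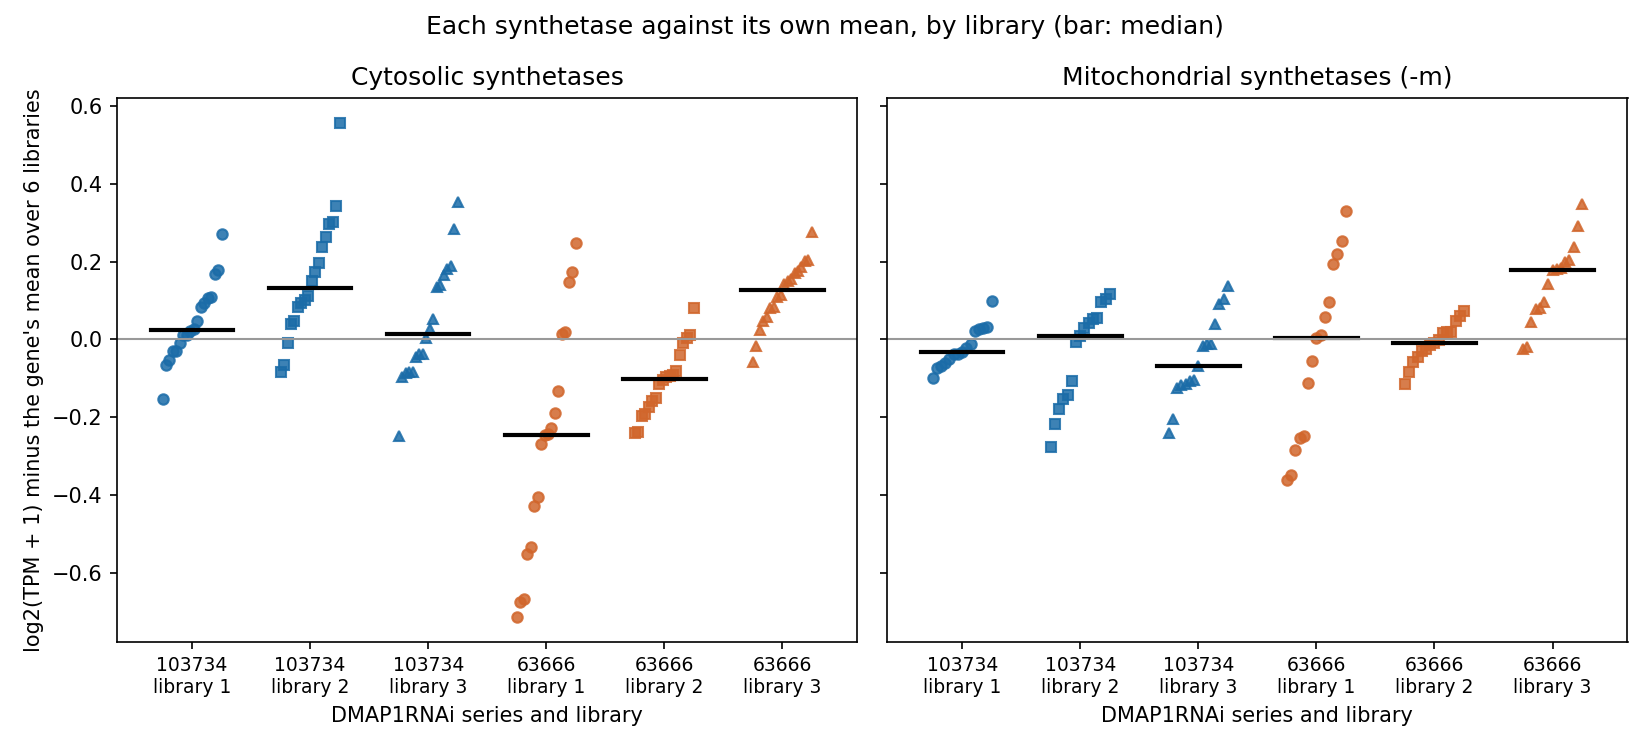
Deviation of each synthetase from its own mean over 6 libraries, log2(TPM + 1), by library, with the median as a black bar. In library 1 of the DMAP1RNAi63666 series the cytosolic genes spread widely around a median of -0.24, whereas the mitochondrial median there is near 0.

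Summed over the 18 genes, cytosolic synthetases took 2174, 2477 and 2237 CPM in the DMAP1RNAi103734 series against 1859, 2054 and 2354 CPM in the other. The mitochondrial sum was 497, 518 and 503 CPM in the first and 514, 513 and 574 CPM in the second. The series overlapped in both sums. The summed neuronal markers (elav, nSyb, Syt1, brp, cpx and Snap25) ran in the opposite order of libraries to the cytosolic sum, at 5576, 4473 and 5435 CPM in the first series and 7241, 5681 and 5423 CPM in the second. The mitochondrial sum did not follow that order, and no single neuronal gene ran in it throughout. For example, elav had 695 CPM in library 2 and 754 in library 3 of the second series, where the cytosolic sum was also higher in library 3. Summed glial markers (6 genes) were 4758, 4574 and 5011 CPM in the first series and 5905, 5184 and 5350 in the second, all higher, and summed neuroblast markers (6 genes) 516, 528 and 522 CPM against 495, 513 and 451, all lower. Single neuroblast genes were divided. The log2 fold change was -0.39 for mira, -0.18 for insc and -0.13 for dpn, but 0.30 for ase, 0.07 for wor and 0.03 for grh. Of the glial genes repo had -0.16 and the others values above 0. Summed muscle markers (6 genes) were 459, 491 and 317 CPM in the first series and 214, 330.2 and 552 in the second, lowest in the library that was lowest in cytosolic synthetases. None of these markers was at 0 in any library.

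Summed fat body markers (7 genes, none at 0) ranged from 921 to 1747 CPM in the first series and from 1075 to 1443 CPM in the second. Most of that sum was the lipoprotein gene apolpp, at 841 to 1372 CPM, with a log2 fold change of 0.38. The other 5 tested fat body genes had values from -3.33 to -0.70. In library 2 of the first series the larval serum protein gene Lsp2 stood at 35.3 CPM against 0.344 and 1.72 in the same series, and Lsp1alpha at 78.7 against 2.67 and 4.18 CPM. Summed hemocyte markers (5 genes) were 118, 39.4 and 205 CPM in the first series and 112, 145 and 25.7 in the second. Summed ring gland markers (5 genes) were 81.1, 160.4 and 79.3 CPM in the first and 112, 122 and 228 in the second. Library 2 of the first and library 3 of the second series had the highest ring gland and fat body sums and the lowest hemocyte sums. They also had the highest cytosolic synthetase sums. The part of these cell types in the synthetase levels was not tested.

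Between the series, 0 of 33 synthetase genes passed an adjusted p of 0.05 in edgeR's quasi-likelihood test, where 1.55% of all genes tested passed (0.872% higher and 0.676% lower). At an unadjusted p under 0.05 there were 12 members (36.4%), against 24.6% of all genes tested. By DESeq2, 4 of the 33 passed, namely HisRS, SerRS, TyrRS and ArgRS, where 9.39% of all genes tested passed. The lack of calls by edgeR does not show that levels were equal, since the smallest adjusted p among members was 0.0874. The TPM values of the series did not overlap for 12 of 33 members, 36.4% against 32.0% of all genes tested, with 7 lower and 5 higher in the DMAP1RNAi63666 series. Over all genes tested 19.1% did not overlap and were lower there, and 12.9% were higher.

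The members below and above 0 were divided unevenly between the compartments. Of the 18 cytosolic genes 12 had a log2 fold change below 0, with a median of -0.05 and a range from -0.55 to 0.37. Of the 15 mitochondrial genes 11 had a value above 0, with a median of 0.12 and a range from -0.13 to 0.45. Over all genes tested 49.9% lay below 0, with a median of 0.00. At an unadjusted p under 0.05, the cytosolic genes had 6 lower and 1 higher, and the mitochondrial genes 0 lower and 5 higher, whereas 11.9% of all genes tested were lower and 12.6% higher. These counts describe the lists and carry no test. Of the 33 members 11 changed sign in at least 1 of the settings tried. Without library 1 of the DMAP1RNAi63666 series alone, 9 of 18 cytosolic genes lay below 0, with a median of -0.01. Without library 2 of the DMAP1RNAi103734 series and library 1 of the DMAP1RNAi63666 series, a setting chosen after seeing the data, 8 of 18 cytosolic genes lay below 0 with a median of 0.03, and 12 of 15 mitochondrial genes lay above 0 with a median of 0.15. In cytosolic genes this pair had the highest and the lowest median deviation, so leaving it out tends to raise their values. Library 3 of the DMAP1RNAi63666 series, with a median deviation of 0.13, was kept. For a gene whose series lie furthest apart in this pair, the setting shrinks the difference by construction.

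**Figure D3:**
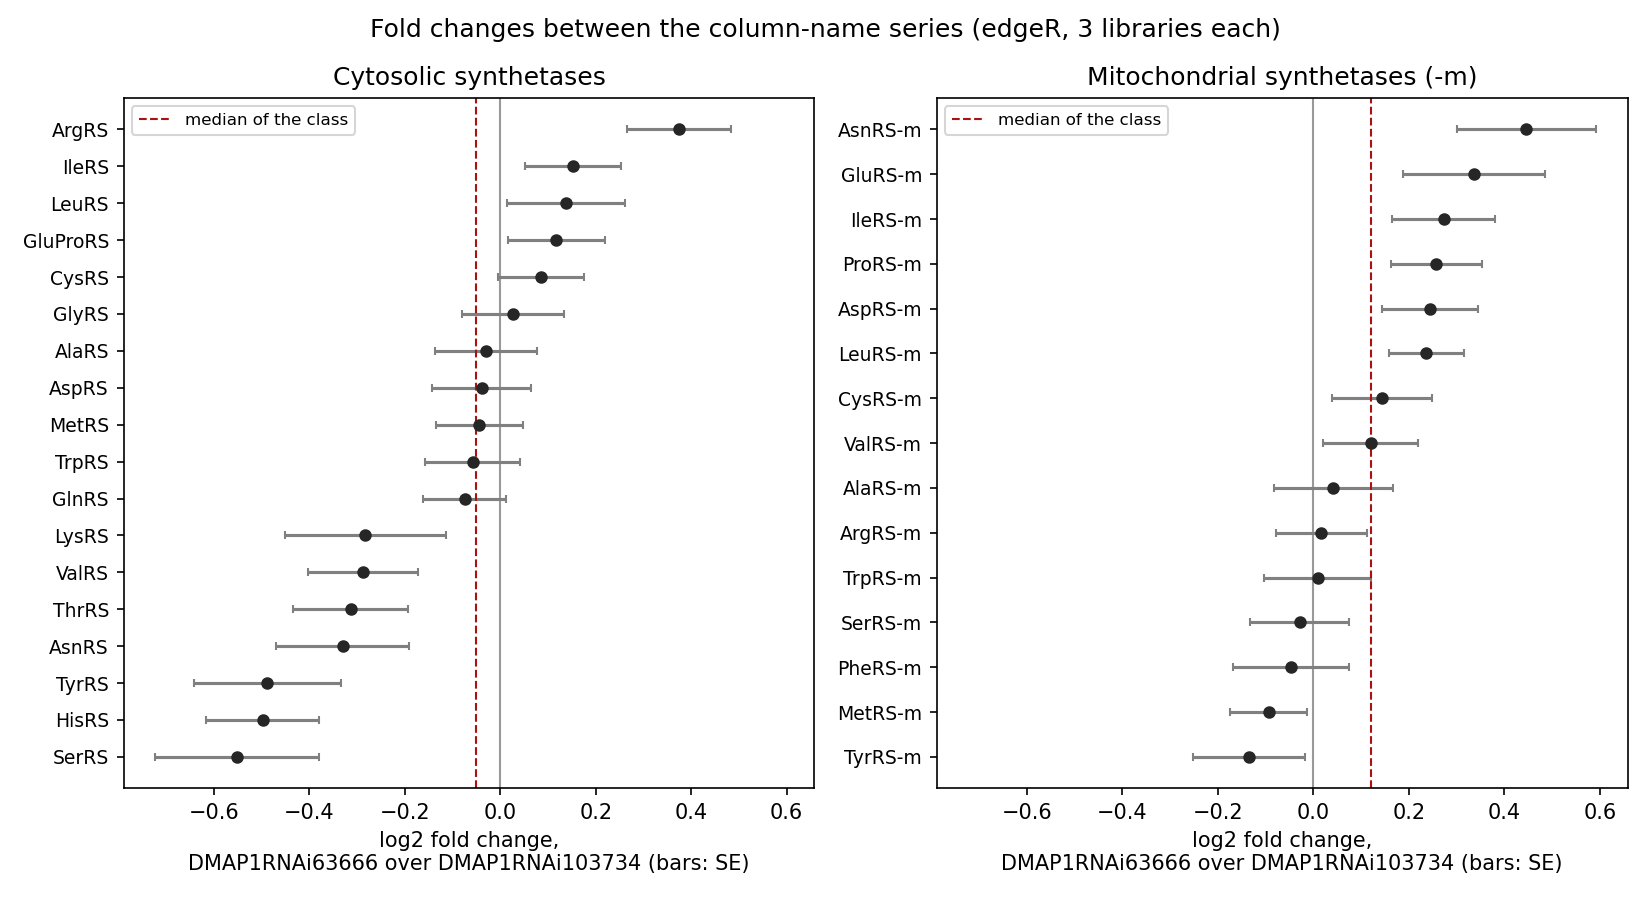
Log2 fold change of each synthetase, DMAP1RNAi63666 over DMAP1RNAi103734, as points with the SE as bars, and the median of each class as a dashed line. The cytosolic values run from -0.55 (SerRS) to 0.37 (ArgRS) and the mitochondrial values from -0.13 (TyrRS-m) to 0.45 (AsnRS-m), and none passed the adjusted threshold in edgeR.

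SerRS, the seryl enzyme (FBgn0031497, 2L, 3035493 to 3037403, minus strand), had the largest difference of the cytosolic genes. It stood at 89.8, 118 and 89.6 TPM in the DMAP1RNAi103734 series against 49.7, 67.4 and 81.2 in the other, where all libraries were lower. Its log2 fold change was -0.55 (SE 0.17, edgeR adjusted p = 0.131), and DESeq2 gave an adjusted p of 0.0354. Without both libraries named above the value was -0.26. For SerRS these held the highest value of the first series and the lowest of the second. Leaving them out therefore had to shrink the difference.

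HisRS, the histidyl enzyme (FBgn0027087, X, 18515428 to 18520445, plus strand), had the smallest adjusted p of all members. Its values were 50.7, 57.0 and 54.6 TPM in the DMAP1RNAi103734 series against 30.2, 38.9 and 42.9 in the other, with no overlap. The log2 fold change was -0.50 (SE 0.12, edgeR adjusted p = 0.0874), and DESeq2 gave an adjusted p of 0.0067. It ranged from -0.58 to -0.35 over all settings tried.

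TyrRS, the tyrosyl enzyme (FBgn0027080, 3L, 16417349 to 16419302, minus strand), had 98.3, 93.3 and 104 TPM in the first series and 49.2, 76.2 and 80.3 in the second. The series did not overlap, and library 1 of the second lay well below the other libraries. The log2 fold change was -0.49 (SE 0.15, edgeR adjusted p = 0.133), and DESeq2 gave an adjusted p of 0.0411. TyrRS and GluRS-m are neighbours on the same strand, 171 bases apart, and the fitted value of GluRS-m had the opposite sign, 0.34 (SE 0.15, edgeR adjusted p = 0.207), and 0.21 without both libraries.

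ArgRS, the arginyl enzyme (FBgn0027093, X, 15841769 to 15844145, minus strand), went the other way. It read 88.1, 92.5 and 82.5 TPM in the DMAP1RNAi103734 series against 117, 95.4 and 119 in the other, so that all libraries of the second were higher. The log2 fold change was 0.37 (SE 0.11, edgeR adjusted p = 0.123), with an adjusted p of 0.0397 in DESeq2 and of 0.0494 in edgeR without library 2 of the DMAP1RNAi63666 series. ArgRS was the sole cytosolic gene with all libraries of the second series above all of the first.

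AsnRS, the asparaginyl enzyme (FBgn0086443, 2L, 19129469 to 19131954, minus strand), had 91.0, 106 and 97.9 TPM in the first series and 59.0, 77.3 and 92.7 in the second, which overlapped. Its log2 fold change was -0.33 (SE 0.14, edgeR adjusted p = 0.194), -0.21 when library 1 of the DMAP1RNAi63666 series was left out and -0.14 without both libraries named above. ThrRS and ValRS, described with the levels, had values of -0.31 (SE 0.12, edgeR adjusted p = 0.168) and -0.29 (SE 0.11, edgeR adjusted p = 0.178). LysRS, the lysyl enzyme, had 137, 150.3 and 144 TPM in the first series and 79.8, 135 and 133 in the second. The series did not overlap, and library 1 of the second lay far below the other 5. The log2 fold change was -0.28 (SE 0.17, edgeR adjusted p = 0.324). The remaining 10 cytosolic genes had values from -0.07 to 0.15, among them GlyRS, AlaRS and the fused GluProRS at 0.03, -0.03 and 0.12.

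AsnRS-m, the mitochondrial asparaginyl enzyme (FBgn0034177, 2R, 17001994 to 17003599, plus strand), had the largest difference of the mitochondrial genes, opposite in sign to AsnRS. It stood at 27.1, 23.1 and 23.7 TPM in the DMAP1RNAi103734 series against 35.7, 25.9 and 36.1 in the other, where library 2 fell within the range of the first series. The log2 fold change was 0.45 (SE 0.15, edgeR adjusted p = 0.138). Without library 2 of the DMAP1RNAi63666 series it was 0.59, with an edgeR adjusted p of 0.043.

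IleRS-m, the isoleucyl enzyme (FBgn0036569, 3L, 16100280 to 16103482, plus strand), had 27.5, 24.8 and 25.9 TPM in the first series and 33.8, 28.0 and 29.8 in the second. ProRS-m, the prolyl enzyme (FBgn0027082, 3L, 2650161 to 2651850, minus strand), had 23.0, 21.1 and 21.7 TPM in the first and 23.8, 24.7 and 28.0 in the second. In both genes all libraries of the second series were higher. Their log2 fold changes were 0.27 (SE 0.11, edgeR adjusted p = 0.175) and 0.26 (SE 0.10, edgeR adjusted p = 0.162), and without the pair of libraries named above that of IleRS-m was 0.13. LeuRS-m at 0.24 (SE 0.08, edgeR adjusted p = 0.142) and AspRS-m at 0.24 (SE 0.10, edgeR adjusted p = 0.187) were of similar size. Without library 1 of the DMAP1RNAi63666 series AspRS-m had 0.15 and IleRS-m 0.15. Beside these and GluRS-m, given with TyrRS, the remaining 9 mitochondrial genes had values from -0.13 to 0.14. MetRS-m, with 13.9, 14.2 and 14.7 TPM against 12.5, 13.1 and 13.4, was the sole mitochondrial gene with all libraries of the DMAP1RNAi63666 series below all of the first, at a log2 fold change of -0.09 (SE 0.08, edgeR adjusted p = 0.49).

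For 14 amino acid pairs a cytosolic and a mitochondrial gene could be set side by side in the same library, GluProRS serving for glutamate and for proline. The ratio of cytosolic to mitochondrial TPM, averaged over 6 libraries, ran from 1.29 ± 0.202 (SD) for AspRS over AspRS-m to 14.7 ± 1.96 for GluProRS over GluRS-m, with a median of 4.02 over the pairs. The cytosolic gene was higher in all 6 libraries in 13 of 14 pairs. The exception was aspartate, where library 1 of the DMAP1RNAi63666 series had a ratio of 0.925. Since the level of AspRS is a lower limit, so is this ratio.

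**Figure D4:**
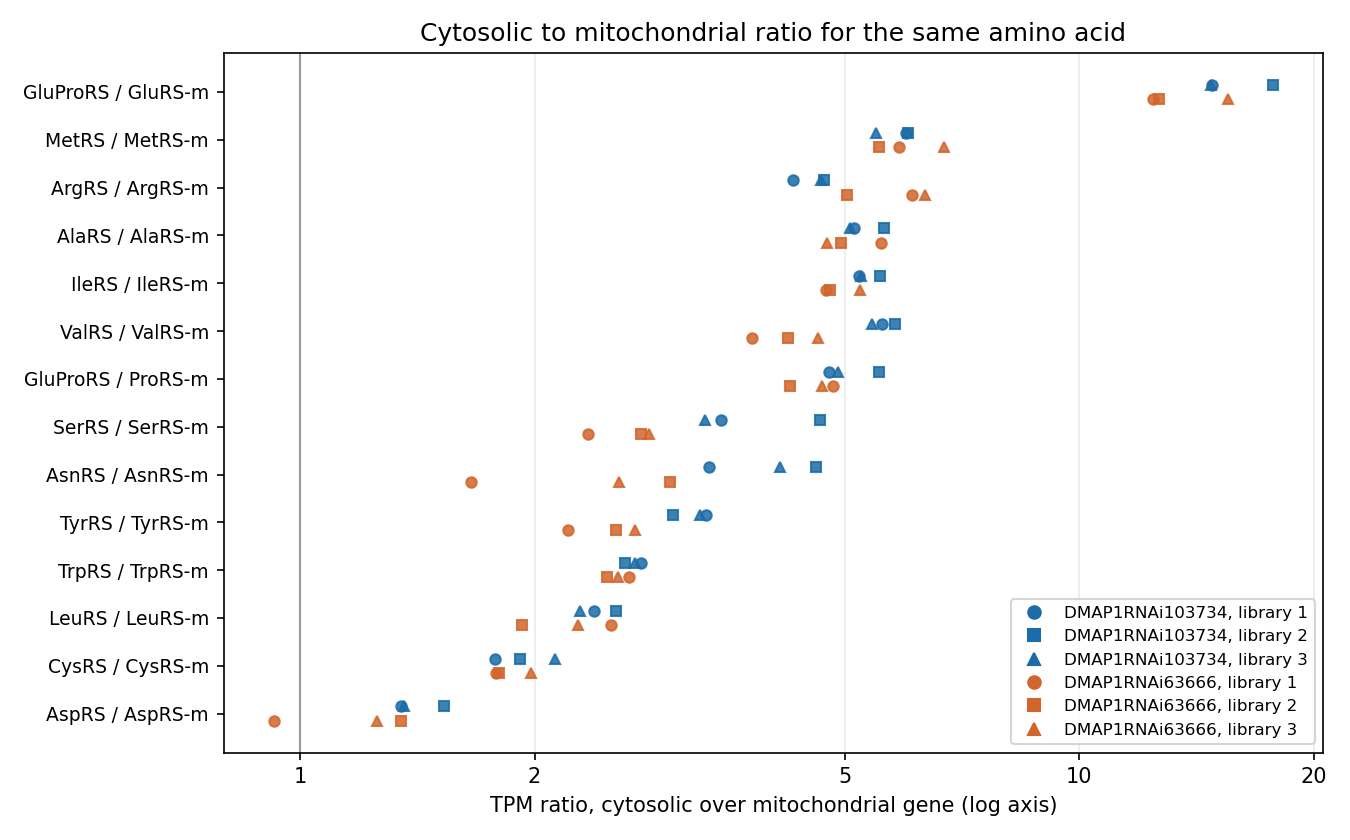
Ratio of cytosolic to mitochondrial TPM for the same amino acid, on a log axis, in each of the 6 libraries, with a line at 1. The pairs for asparagine, serine, tyrosine and valine lie lower in all DMAP1RNAi63666 libraries, and the pair for arginine lies higher.

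In the pair for asparagine the ratio was 3.35, 4.59 and 4.13 in the DMAP1RNAi103734 series against 1.66, 2.98 and 2.57 in the other. For serine it was 3.47, 4.66 and 3.31 against 2.34, 2.74 and 2.80, for tyrosine 3.32, 3.01 and 3.26 against 2.21, 2.55 and 2.69, and for valine 5.59, 5.81 and 5.43 against 3.80, 4.23 and 4.62. In these pairs all libraries of the second series were lower. For arginine the ratio was 4.30, 4.70 and 4.66 against 6.10, 5.04 and 6.34, all of the second higher. Thus 5 of 14 pair ratios did not overlap. The share of such ratios among other genes was not computed, and the 32.0% of single genes tested is an unlike measure. SerRS, TyrRS, ValRS and ArgRS did not overlap as single genes either, so the count is not a separate result about the pairs. The other 9 pairs overlapped, for example tryptophan with 2.74, 2.61 and 2.69 against 2.64, 2.48 and 2.56. An exact permutation test of 3 libraries against 3 cannot give a p below 0.1, and no other test of these ratios was made.

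The genes that work beside the synthetases had no call either, at 0 of 53 tested in edgeR, with 1.55% of all genes tested passing. In the list of PheRS subunits and multisynthetase scaffold, all 5 genes had values below 0, with a median log2 fold change of -0.21. AIMP1, a scaffold protein, had 27.3, 40.01 and 38.1 TPM in the DMAP1RNAi103734 series against 14.5, 24.96 and 24.01 in the other, all of the latter lower. Its value was -0.70 (SE 0.22, edgeR adjusted p = 0.133), with an adjusted p of 0.0376 in DESeq2, and -0.40 without the pair of libraries named above. The catalytic subunit alpha-PheRS had 79.8, 89.2 and 75.9 TPM in the first series and 45.4, 73.3 and 81.3 in the second, which overlapped. Its log2 fold change was -0.26 (SE 0.18, edgeR adjusted p = 0.388), -0.08 without library 1 and -0.39 without library 3 of the second series, and 0.01 without the same pair of libraries. The scaffold AIMP2 stood at -0.03.

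The mitochondrial partners GatA, GatB and Slimp had values above 0. GatB, a subunit of the amidotransferase that completes the glutamine tRNA, had 30.7, 28.5 and 32.1 TPM in the first series and 37.1, 32.6 and 33.9 in the second, at a log2 fold change of 0.23 (SE 0.10, edgeR adjusted p = 0.213). Without library 1 of the second series it was 0.13, and without the pair of libraries 0.10. Slimp, a paralog of the mitochondrial seryl enzyme, had 23.6, 25.7 and 24.2 TPM against 25.5, 25.4 and 27.5, which overlapped, at 0.13 (SE 0.09, edgeR adjusted p = 0.399). GatC was listed at 0 in every library and so was PolG2, whose exons are the same, so that no read could be assigned to a single gene, and neither was tested.

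Cytosolic elongation factors were abundant and divided in sign, with a median of -0.10 over 8 genes. eEF1alpha1, which delivers charged tRNA to the ribosome, stood at 8675 to 9758 TPM in the 6 libraries and at a log2 fold change of -0.04. Of the exchange factor subunits, eEF1gamma had -0.37 and eEF1beta -0.35 while eEF1delta had 0.41 (SE 0.14, edgeR adjusted p = 0.15). eEF1delta read 627, 685 and 577 TPM in the first series and 821, 656 and 964 in the second, which overlapped, and edgeR gave an adjusted p of 0.0487 without library 2 of the second series. eEFSec, the factor for selenocysteine, had 12.1, 10.9 and 10.5 TPM against 14.1, 12.7 and 15.9, all higher, at 0.39 (SE 0.13, edgeR adjusted p = 0.141). Among 6 mitochondrial factors the median was -0.12. mEFTu1, which carries charged tRNA in mitochondria, had 81.2, 98.0 and 85.7 TPM in the first series and 40.3, 72.7 and 68.4 in the second, all lower, at -0.51 (SE 0.19, edgeR adjusted p = 0.163). mEFTu2 had 34.7, 35.3 and 37.8 TPM against 23.1, 36.3 and 28.3, which overlapped, at -0.26 (SE 0.15, edgeR adjusted p = 0.315). Without library 1 of the second series mEFTu1 had -0.32 and mEFTu2 -0.14, and without library 2 of that series mEFTu2 had -0.44.

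The amino acid response senses uncharged tRNA through the kinase Gcn2 and acts through eIF2 and the transcription factor crc, the fly ATF4. Its list of 18 genes had a median of -0.02. crc, Gcn2 and AsnS, the asparagine synthetase of metabolism, stood at 0.00, 0.15 and -0.02, but other genes of the list lay further from 0. At an edgeR unadjusted p under 0.05 there were 3 lower genes, eIF2Bdelta, Thor (-0.45) and eIF2alpha (-0.40). The 2 higher genes were Irbp18 and Mitf (0.36). Over all genes tested 11.9% were lower and 12.6% higher at that threshold. eIF2Bdelta, a subunit of the eIF2 exchange factor, had 36.4, 40.4 and 38.4 TPM in the first series and 16.6, 28.1 and 28.6 in the second, all lower, at -0.62 (SE 0.17, edgeR adjusted p = 0.118). Irbp18, a leucine zipper partner of Xrp1, had 46.97, 54.3 and 48.9 TPM against 84.4, 75.1 and 63.0, all higher, at 0.61 (SE 0.15, edgeR adjusted p = 0.0901). By DESeq2 both passed, with adjusted p of 0.0217 and 0.0106. Without the pair of libraries eIF2Bdelta had -0.38.

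Of 13 tRNA processing genes the median was 0.10. Tsen54, a subunit of the tRNA splicing endonuclease, had 16.5, 17.9 and 19.7 TPM in the first series and 31.1, 23.3 and 26.8 in the second, all higher, at 0.63 (SE 0.15, edgeR adjusted p = 0.0832). RtcB, the ligase that rejoins the cut tRNA, had 45.7, 59.1 and 47.6 TPM against 24.5, 35.5 and 38.9, all lower, at -0.59 (SE 0.17, edgeR adjusted p = 0.117). These genes of tRNA splicing thus differed in sign, and DESeq2 gave adjusted p of 0.00798 and 0.0226. Without the pair of libraries RtcB had -0.31, and without library 2 of the second series edgeR gave Tsen54 an adjusted p of 0.0471.

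**Figure D5:**
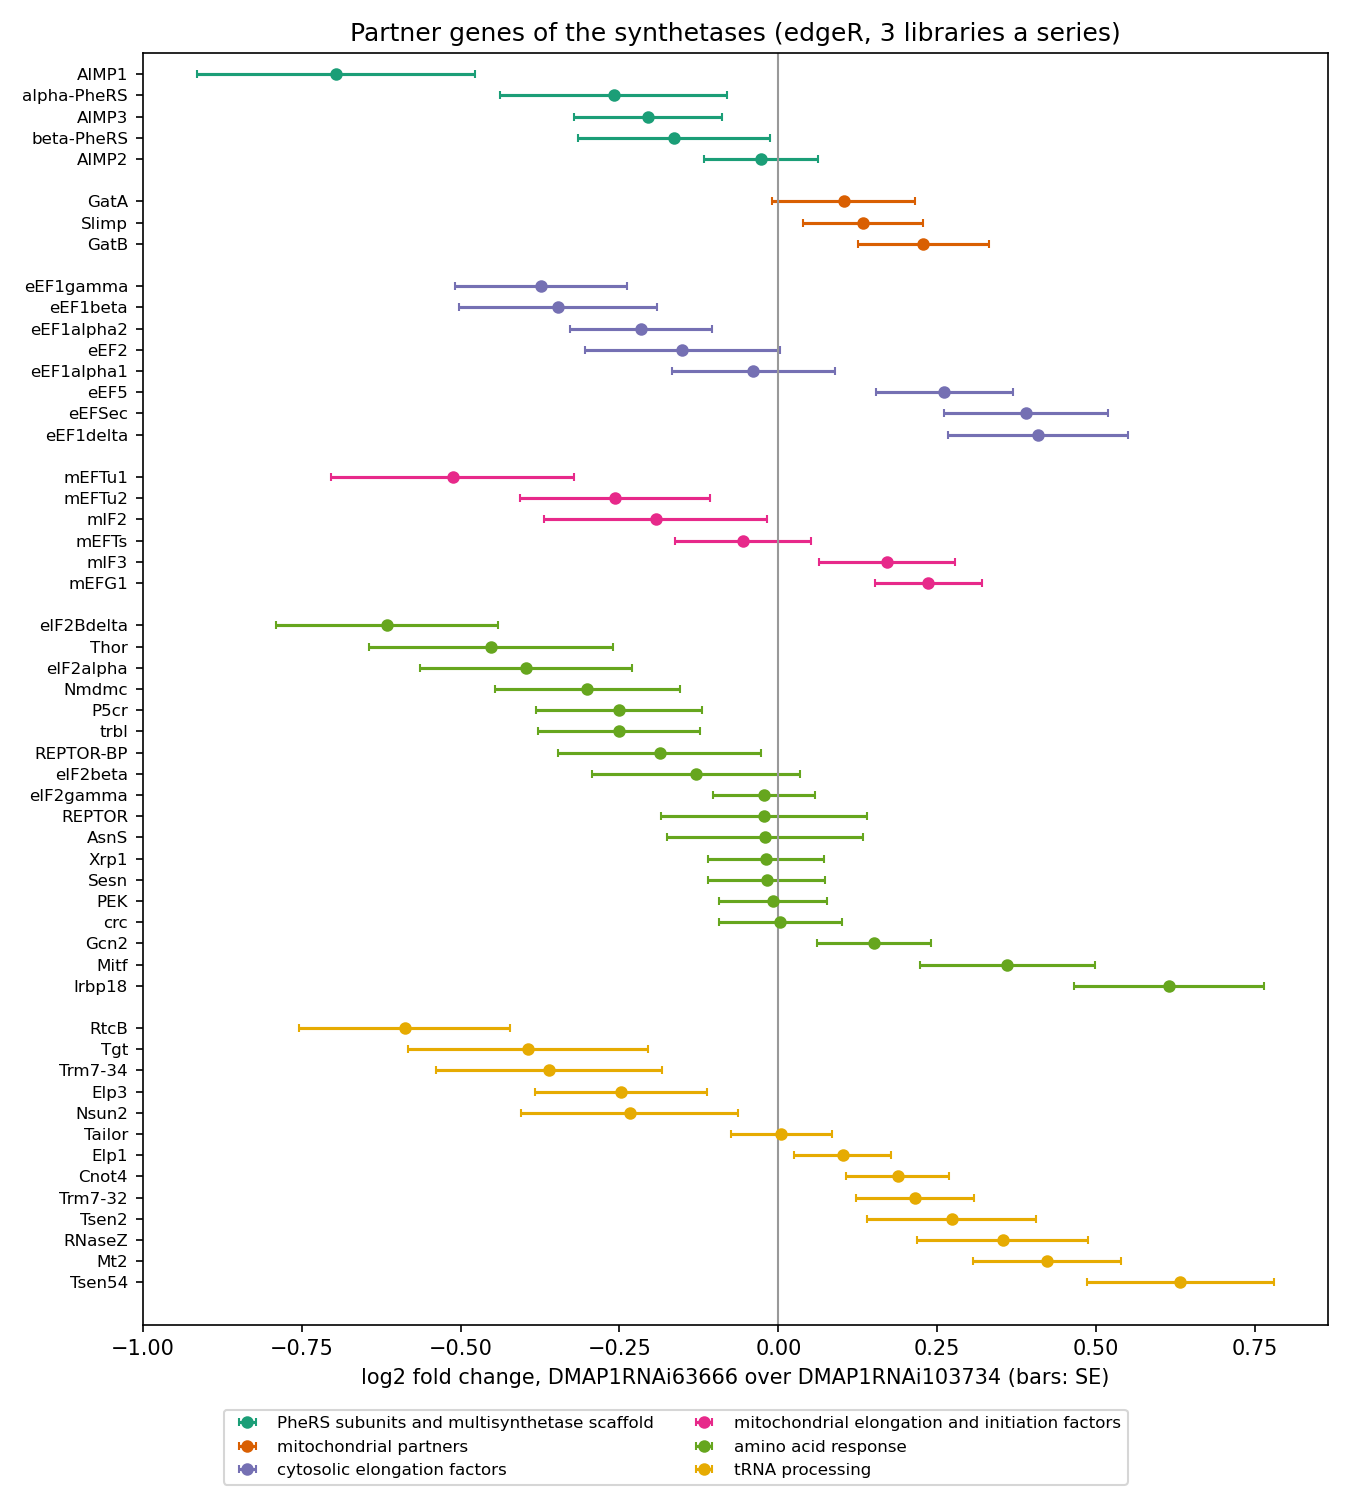
Log2 fold change of the partner genes, DMAP1RNAi63666 over DMAP1RNAi103734, as points with the SE as bars, grouped by list. AIMP1, eIF2Bdelta and RtcB lie lowest and Tsen54 and Irbp18 highest, and none of the 53 genes passed the adjusted threshold in edgeR.

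The mitochondrial synthetases serve the translation of mRNAs from the mitochondrial genome. That genome's share of each library was 6.98, 6.88 and 7.10% in DMAP1RNAi103734 libraries, against 10.9, 8.85 and 8.18% in those of DMAP1RNAi63666. Of its 37 genes 17 were tested, and edgeR called 6 higher in the latter. Over all genes tested 0.872% were called higher. Most of the share was the ribosomal RNA mt:lrRNA, at 47202 to 48554 CPM of 68827 to 71005 in the first series. In the second it took 50913 to 69215 CPM of 81769 to 109068, so the share does not measure the mRNAs alone. The log2 fold change of mt:lrRNA was 0.41 (SE 0.20, edgeR adjusted p = 0.244), the smallest of the 17. The median log2 fold change was 0.98 for the mitochondrial genome and 0.12 for the mitochondrial synthetases, a difference that was not tested. Since TPM and CPM are shares of a library, the larger mitochondrial share lowers the TPM of all other genes in the second series, and its part in the TPM values of the synthetases was not tested. The fold changes, scaled on TMM factors, had a median over all genes of 0.00.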

How the data were processed

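Libraries were TruSeq (Illumina) from polyA RNA that RNeasy columns had isolated, according to the labels. Each deposited value is a count per gene, unnormalised, which the authors obtained, per the file headers, with featureCounts 1.6.5 (strand option 2, paired-end, minimum overlap 10 bases, at least 0.1 of the read and 0.01 of the feature) on annotation release 84 of BDGP6, with no option to count reads of several places or genes. Alignments lay in a folder named for HISAT2, of unstated version. DESeq2 is listed among the submitters' processing notes without saying for what. The table holds 3 further columns of per-sample values that match no labelled sample and were not used. The column names show the group and series but not which labelled sample each is.

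Symbols came from the gene identifier for 17216 of 17490 genes, for 214 from a gene of Ensembl release 115 with an exon overlap of 0.8 or more (2 members, LeuRS and PheRS-m), and from neither for 60. Of the 17216 genes 16942 had the same span in both annotations, and coordinates are those of the deposited table. CPM and TPM were computed from the counts and the gene lengths. The series were compared with edgeR 4.0.16 (TMM factors 0.915 to 1.039, quasi-likelihood test, filter at a minimum count of 10) over 10211 genes in R 4.3.3, with Benjamini-Hochberg adjustment over all of them. The SE is the fold change divided by the root of the test statistic. The fit was tested on simulated counts with 200 genes changed and the same spread set for all genes. The planted changes were larger than any synthetase value reported here. That test therefore does not show how often changes of the reported size would be called. All pairs of libraries differed by more than sampling noise (lowest chi-square per degree of freedom 24.8). Alternatives were DESeq2 1.42.0, other factors and filters, a replicate block, and libraries left out.

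Levels were given in every library for members past the threshold, for the 3 highest and 3 lowest of each class and for the 5 of each class with the largest fold change, with 2 genes of each partner list. Other genes were named after their values were seen. The members and lists were chosen with earlier results of these data known. In the lists, mEFG2 and Psat could not be matched, and Dnmt2 and mt2 are the same gene. No sequence was analysed here.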

Additional observations from a re-analysis of the deposited data

Results flagged for a closer look

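In 3 of 33 members the lowest library lay far from the other 5, by a test for a single outlying value (Dixon's test at its 95% level). For values of a single normal population chance gives a share of about 1 in 20. The libraries here fall in 2 series, so that share need not hold. Members share the same libraries, so they are not independent draws for that share. The share of all genes tested that this rule flags is not given here, so the count is not a result about synthetases. LysRS had 79.8 TPM in library 1 of the DMAP1RNAi63666 series, against 132.6 in the next lowest library (gap over range 0.748). TyrRS-m had 22.3 TPM there against 29.6 (0.759), and GlnRS had 63.6 against 74.8 (0.657). All 3 low values came from the same library, which also had the fewest counts, 31518485, and the highest share of mitochondrial genome counts, 10.9%. That library was the lowest of the 6 for 41.3% of all genes tested. The part of these in the low values was not tested.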

How the results depend on the processing

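Over all genes 158 were called (89 higher, 69 lower). The count was 959 with DESeq2, 91 with the minimum count in every library, 278 with the replicate block, 94 without library 2 of the DMAP1RNAi103734 series and library 1 of the DMAP1RNAi63666 series (chosen after seeing the data), and 69 to 457 without 1 library each, the highest without library 2 of the DMAP1RNAi63666 series. Of the synthetases 0 were called, 4 with DESeq2, and 0 to 2 without 1 library each. The median fold change stayed between -0.12 and -0.01 for cytosolic and between 0.07 and 0.15 for mitochondrial genes without 1 library each. With 2 libraries in a series, the spread is pooled over both. The median level was 104 with CPM in place of TPM and 98.2 with the mean over cytosolic members, and 28.9 with the mean over mitochondrial members. Without 1 library each, the median levels ran from 82.6 to 91.7 and from 24.8 to 26.4 TPM. Of 276 values of 23 named genes over the settings, 253 kept direction and call, 14 passed anew, 8 (all DMAP1) no longer passed and alpha-PheRS alone reversed, from -0.26 to 0.0066 without the same pair of libraries. Most of these genes were named for the largest fold changes of their list. Of all 33 synthetases, 11 changed sign in at least 1 setting and 22 kept it in all. Same-numbered libraries did not deviate together (r of 0.243, -0.213 and -0.26), so the block pairs libraries by number alone. The largest r across the series was 0.41, between library 2 of DMAP1RNAi103734 and library 3 of DMAP1RNAi63666, which the block does not pair. The block called no synthetase, gave AIMP1 an edgeR adjusted p of 0.0254 and DMAP1 one of 0.0507. Counting error limits GluRS-m, whose interval in 1 library, 4.57 to 6.13 CPM, is wider than the range of its series, 4.98 to 5.34.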

Other observations

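Fold changes were set against gene length. Spearman's rho between length and log2 fold change was 0.39 across the 18 cytosolic genes and -0.15 across the 15 mitochondrial genes, and 0.05 across all 10211 genes tested. These are descriptions across genes, which share libraries and are not independent replicates. Over 5 bins of all genes by length, the median log2 fold change ran from -0.04 to 0.03.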
